A study of Mus musculus with 2 samples.

Results

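The genes described here are the collagen chains and the laminin chains of the mouse, the main structural proteins of the extracellular matrix. Members were every gene of the 2 deposited count tables whose symbol is Col, a number, the letter a and a number, or Lama, Lamb or Lamc and a number, so the choice used names and no measured value. The rule took 55 of 33456 genes, 44 collagen chains and 11 laminin chains, and each symbol occurred once. The study profiled single cells of mouse blood development by droplet RNA sequencing, with 1 library of embryoid bodies (EB, aggregates of differentiating embryonic stem cells) at day 4 and 1 library of yolk sac (YS, the first site of blood formation) of E9.5 and E10.5 embryos. Both are labelled with the strain C57BL/6. Cells of both yolk sac ages were mixed before dissociation, so the ages cannot be told apart. The embryonic stem cells had been kept on fibroblast feeders, were moved off them 2 days before differentiation, and differentiated in serum with ascorbic acid towards mesoderm that can form blood and vessels. EB were dissociated with Accutase and YS with collagenase. Both were frozen, thawed and sorted for live cells, and about 70% of Ter119+ red cells were removed from YS. Stage, origin and dissociation enzyme thus differed together between the libraries and cannot be told apart.

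Each library is 1 sample, so no difference between the libraries or between groups of cells has a replicate check and no test was made. Values are unique molecular identifiers (UMIs, 1 for each captured RNA molecule) per 1000000 UMIs of the same cells (CPM), and each interval is a 95% counting interval that covers counting error only. EB gave 1878 cells with a median of 25547 UMIs and YS gave 775 cells with a median of 28461 UMIs. The 2 sets of cells shared 2 barcodes. The chemistry of the libraries (5′ or 3′) was not given and UMIs were not divided by transcript length, so a ratio of chains is a ratio of captured UMIs and was compared across groups of cells, not read as a ratio of transcripts.

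Collagens are trimers of alpha chains, and the gene products fall into families by the assembly they build. Fibrillar collagens form the cables of connective tissue, collagen IV forms the sheet of basement membranes, and laminins, each a cross of an alpha, a beta and a gamma chain, form the second basement membrane network and bind integrins on the cell. In the yolk sac a mesothelial layer and its mesenchyme lie over a vascular bed and an endoderm layer, with blood cells inside the vessels.

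Of the chains below, the collagen IV pair is shown because its genes lie head to head, and Col1a2 and Col3a1 are shown because their transcripts were among the 3 most abundant members of YS. The windows run from 250 bases before to 50 bases after the gene start, are from RefSeq with the build GRCm38.p6, and are written 5′ to 3′ on the strand of each gene. In the collagen IV windows, Col4a1 at chr8:11312777-11313076 on the minus strand and Col4a2 at chr8:11312555-11312854 on the plus strand, capitals mark the 78 bases that both windows hold. In Col1a2 (chr6:4505368-4505667, plus strand) and Col3a1 (chr1:45311288-45311587, plus strand) capitals mark CCAAT or TATAAA on either strand. The RefSeq start of Col1a2 lies inside the span that the GENCODE annotation gives the gene.
Col4a1: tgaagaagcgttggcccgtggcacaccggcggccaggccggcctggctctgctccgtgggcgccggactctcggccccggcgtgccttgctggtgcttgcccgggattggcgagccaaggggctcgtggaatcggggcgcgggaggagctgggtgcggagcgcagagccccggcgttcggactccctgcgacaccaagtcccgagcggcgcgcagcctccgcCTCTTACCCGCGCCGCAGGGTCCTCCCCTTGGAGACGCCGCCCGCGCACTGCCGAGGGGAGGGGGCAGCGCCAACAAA
Col4a2: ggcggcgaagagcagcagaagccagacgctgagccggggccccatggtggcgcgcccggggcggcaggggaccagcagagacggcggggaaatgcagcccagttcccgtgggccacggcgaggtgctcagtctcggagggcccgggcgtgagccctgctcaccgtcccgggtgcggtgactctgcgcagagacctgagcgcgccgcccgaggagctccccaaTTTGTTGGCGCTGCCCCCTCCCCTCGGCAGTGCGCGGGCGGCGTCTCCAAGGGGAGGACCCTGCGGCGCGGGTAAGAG
Col1a2: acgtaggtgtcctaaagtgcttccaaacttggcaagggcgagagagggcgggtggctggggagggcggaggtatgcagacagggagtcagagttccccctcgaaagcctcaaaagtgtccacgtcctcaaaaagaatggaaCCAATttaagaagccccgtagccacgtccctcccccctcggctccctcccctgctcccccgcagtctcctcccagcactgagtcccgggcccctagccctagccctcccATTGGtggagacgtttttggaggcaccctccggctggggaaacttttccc
Col3a1: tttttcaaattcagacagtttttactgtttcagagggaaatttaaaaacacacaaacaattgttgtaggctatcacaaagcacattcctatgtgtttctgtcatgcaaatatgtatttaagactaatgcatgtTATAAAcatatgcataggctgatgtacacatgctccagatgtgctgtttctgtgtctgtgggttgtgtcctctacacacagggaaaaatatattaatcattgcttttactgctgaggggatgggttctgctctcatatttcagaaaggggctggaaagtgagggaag

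The 78 bases shared by the collagen IV windows (chr8:11312777-11312854) had a GC content of 73.1%, against a median of 52.7% over the 32851 windows of all genes, and held 1 GGGCGG and no CCAAT or TATAAA on either strand. By the GENCODE M21 annotation of GRCm38, the starts of Col4a1 and Col4a2 lay 21 bases apart and the genes overlapped by 22 bases. The other collagen IV genes also lay in pairs, with 72 bases between the starts of Col4a3 and Col4a4 and 1309 bases between those of Col4a5 and Col4a6 on chromosome X. The chains of collagen I were not neighbours (Col1a1 chr11:94936224-94953042, Col1a2 chr6:4504814-4541544), whereas Col3a1 and Col5a2 lay tail to tail on chromosome 1, 24615 bases apart. The Col1a2 window held CCAAT at 2 places and GGGCGG at 2, and the Col3a1 window held 1 TATAAA, no CCAAT, no GGGCGG and 37.7% GC. Of the 55 members, 40 had at least 1 window, 44 windows in all, and Col1a1, Col5a2, Lama1, Lama4 and Lamc1 had none. CCAAT was in 14 of the 44 (31.8%, against 37.4% of all windows), TATAAA in 5 (11.4%, against 13.6%) and GGGCGG in 26 (59.1%, against 35.7%), each searched on both strands and counted also where motifs overlapped.

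Members took 0.0174% of the UMIs of EB cells (interval 0.0171% to 0.0178%; 8842 UMIs) and 0.183% of those of YS cells (0.181% to 0.184%; 44139 UMIs). The median cell held 4 member UMIs in each library, so the larger YS total lay in a part of the cells. In YS, fibrillar collagens made up 82.9% of all member UMIs, collagen IV 5.06%, collagens of the FACIT type (which sit on fibril surfaces) 2.98% and collagen XV and XVIII 2.92%. In EB no family was that dominant: laminin beta chains made up 21.1%, collagen IV 17.5%, fibrillar collagens 15.3%, and collagen XV and XVIII 13.4%, and laminin alpha chains were at 18.3 CPM, against 17.6 CPM in YS. Collagen IV and laminin chains together, called basement membrane chains here (17 of the 55), took 54.9% of member UMIs in EB and 8.62% in YS, at 95.7 and 157 CPM.

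Of the 44 members with at least 10 UMIs over both libraries, 27 were at least 2-fold higher in YS, where 21.5% of all 15621 genes of that depth were, and 8 were at least 2-fold higher in EB, where 18.5% of all genes were. Among the 8 were Col7a1, Col13a1, Col19a1, Col24a1, Col25a1, Lama5 and Lamb3, of which Col24a1 and Lamb3 had intervals that reached below an equal level. With a minimum of 30 UMIs the count was 5 of 38 members (17.2% of all genes). With the mean of single-cell CPM in place of summed UMIs it was 5 of 44 (16.6% of all genes). The median log2 ratio of EB to YS was -1.64 over the 44 and -0.00167 over all genes. By family, 8 of 10 fibrillar chains, 3 of 4 collagen IV chains, 3 of 3 collagen VI chains and 6 of 8 FACIT chains were higher in YS, and 2 of 3 transmembrane collagens were higher in EB.

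**Figure D1:**
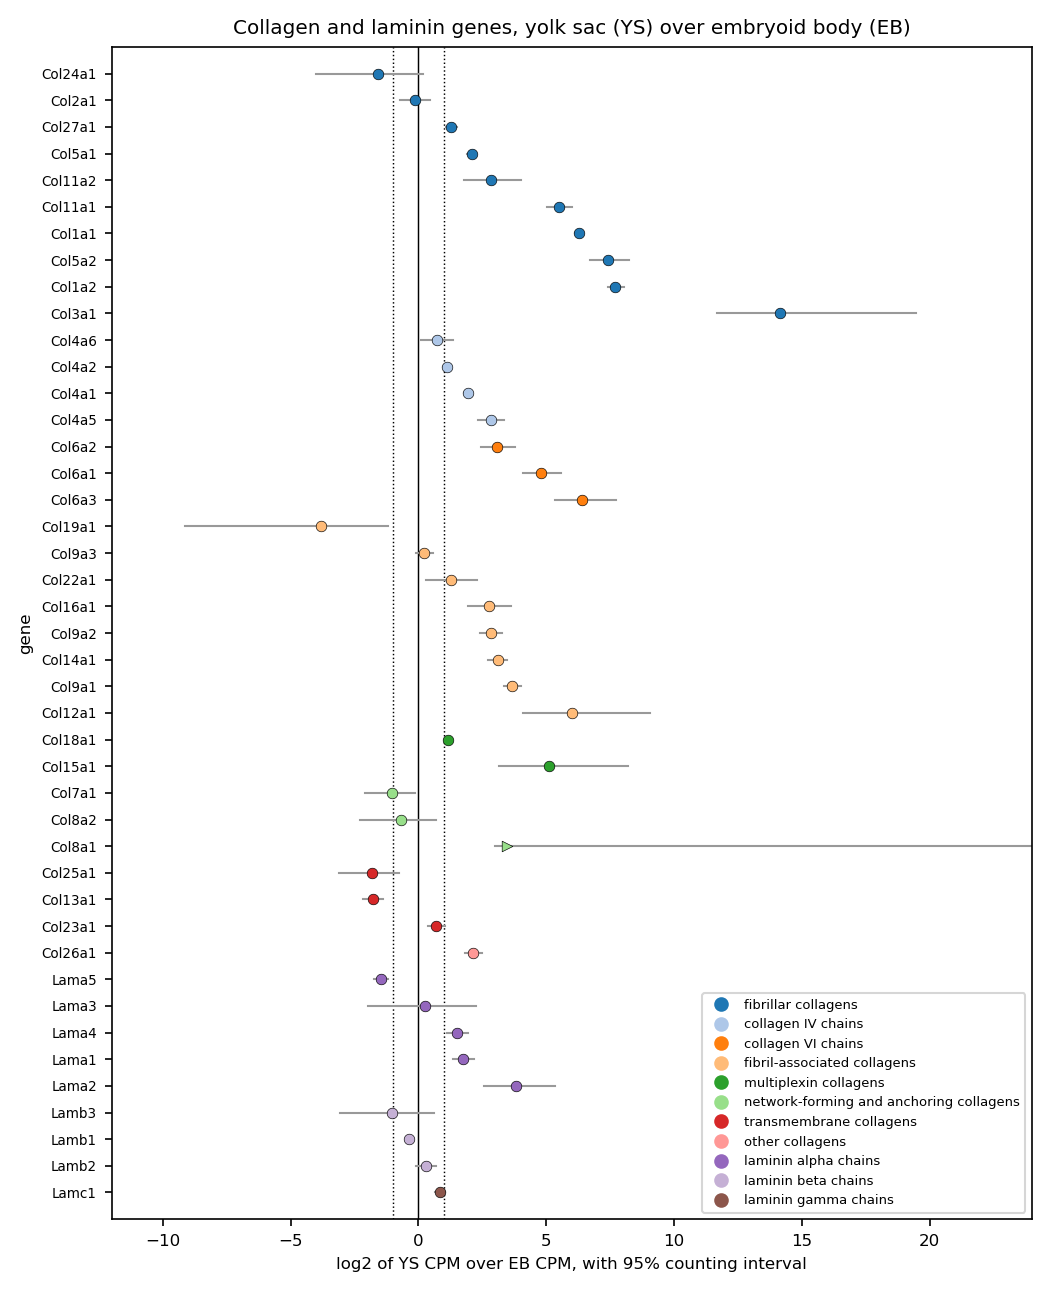
Ratio of YS to EB for the members with at least 10 UMIs that are reported here, on a log2 axis (0 is an equal level), by family; points are the ratios of CPM and lines their 95% counting intervals. Col8a1 had 0 UMIs in EB, so its point is a lower bound with an interval open to the right, and Col3a1 lies farthest to the YS side.

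Cells were described by marker gates, a cell taking the first gate it met, and each group is called by its gate genes. Groups of 20 or more cells were described, 10 in each library with the cells that met no gate (ungated). In YS the 154 cells with embryonic globin held 6 of 6 other erythroid markers at 2-fold or more over the remaining cells, the 25 Afp Apob Cubn cells 8 of 8 yolk sac endoderm markers and the 49 Cdh5 Kdr cells 8 of 8 endothelial markers. The 133 Upk3b cells held 9 of 10 mesothelial and mesenchymal markers, with Msln at 0, and also 5 of 8 smooth muscle markers, with Myh11 at 0 and a summed level of the list of 2355 CPM. The 37 Pdgfra Dcn cells held 5 of 10 markers of the mesothelial and mesenchymal list, with Wt1, Lrrn4 and Msln at 0, and 6 of 8 smooth muscle markers, with Myh11 and Synpo2 at 0. They are therefore called by their gate genes and given no cell type name. The Csf1r C1qb (44 cells), Mpo (88) and Ptprc Coro1a (44) groups held 7, 8 and 6 of 8 blood markers, and the 50 Gata1 Itga2b cells met the check of no list. In EB the 54 Tal1 Fli1 cells held 8 of 8 and the 235 Kdr Etv2 cells 4 of 8 markers of blood and vessel precursors, the 20 Prdm1 Prdm14 cells 5 of 7 germ cell markers, and the 68 Sox2 Pou3f1 cells and the 210 cells of the T (Brachyury) gate 4 of 8 pluripotency markers each. Some gates held 3 or more markers of a second list: Tal1 Fli1 cells 4 of 8 endothelial and 3 of 8 blood markers, Hand1 Foxf1 cells 3 of 10 mesothelial and mesenchymal markers, and Sox2 Pou3f1 cells 3 of 8 smooth muscle markers. No EB gate held 3 of the 8 mesoderm markers. EB lineages overlapped: 1145 of 1878 cells met gates of more than 1 lineage, against 50 of 775 in YS, so an EB group is a mixture set by the order of the gates.

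Collagen I and III carry the bulk of fibrils in soft tissue. Col1a1, the chain present in 2 copies of the collagen I trimer, was at 2727 CPM (2670 to 2784) in Upk3b cells, 3118 CPM (3000 to 3240) in Pdgfra Dcn cells and 1023 CPM in ungated cells. In the other YS groups it was at 105 CPM in Ptprc Coro1a cells and between 3.30 and 4.67 CPM in the 6 remaining groups. In the Ptprc Coro1a group 1 cell held 295 of the 411 member UMIs, so its levels of these chains rest on few cells. Col1a2, the other chain of collagen I, was at 1485 CPM in Upk3b, 1706 CPM in Pdgfra Dcn, 627 CPM in ungated and 30.7 CPM in Ptprc Coro1a cells, and at most 13.9 CPM elsewhere. Col3a1, which builds the homotrimer collagen III, was at 1444, 1791, 602 and 29.4 CPM in the same 4 groups. Its 0 UMIs in Cdh5 Kdr cells were the only 0 of these 3 chains in a described YS group. In summed UMIs, Upk3b lay below Pdgfra Dcn cells for all 3 chains, with counting intervals that did not overlap. These intervals leave out the spread between cells, and single cells of the 2 groups overlapped widely. In Pdgfra Dcn cells 3 cells held 17.6% of member UMIs, and fibrillar collagens were at 7146 CPM with them and 6665 CPM without them. The same values in Upk3b cells were 6244 and 6010 CPM. Upk3b cells were 17.2% of YS cells and held 54.3% of the fibrillar UMIs, Pdgfra Dcn cells 4.77% and 16.3%, and ungated cells 18.3% and 23.2%.

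Cell by cell, collagen I and III transcripts were near-general in the Upk3b and Pdgfra Dcn gates. The sum of Col1a1, Col1a2 and Col3a1 ran from 35.1 to 34951 CPM over Upk3b cells with a median of 5073 CPM, and 129 of 133 cells were at 1000 CPM or more. It ran from 1695 to 23822 CPM over Pdgfra Dcn cells with a median of 5865 CPM, and 37 of 37 cells were at 1000 CPM or more. The ungated cells were split, with 61 of 142 at 1000 CPM or more and 63 at 0. The embryonic globin cells reached at most 138 CPM, and 108 of 154 were at 0. Over the 133 Upk3b cells, the CPM of Col1a1 went with that of Col1a2 at Pearson r 0.83 and Spearman rho 0.77, against 0.17 and 0.10 for Col4a1. Col4a1 had 348 UMIs in these cells, against 8686 of Col1a1 and 4730 of Col1a2, so the values are at unlike depth. Col4a1 with Col4a2 gave 0.39 and 0.34. These are descriptions over cells that share 1 library and its free RNA. A gate on Actg2 alone, chosen after the group sizes had been seen, took 56 YS cells. These held 8 of 8 smooth muscle markers and fibrillar collagens at 6411 CPM (6283 to 6541), and with this and the other added gates the 83 cells that met no gate held 226 CPM, or 89.6 CPM without the 3 cells that carried 42.4% of their member UMIs.

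**Figure D2:**
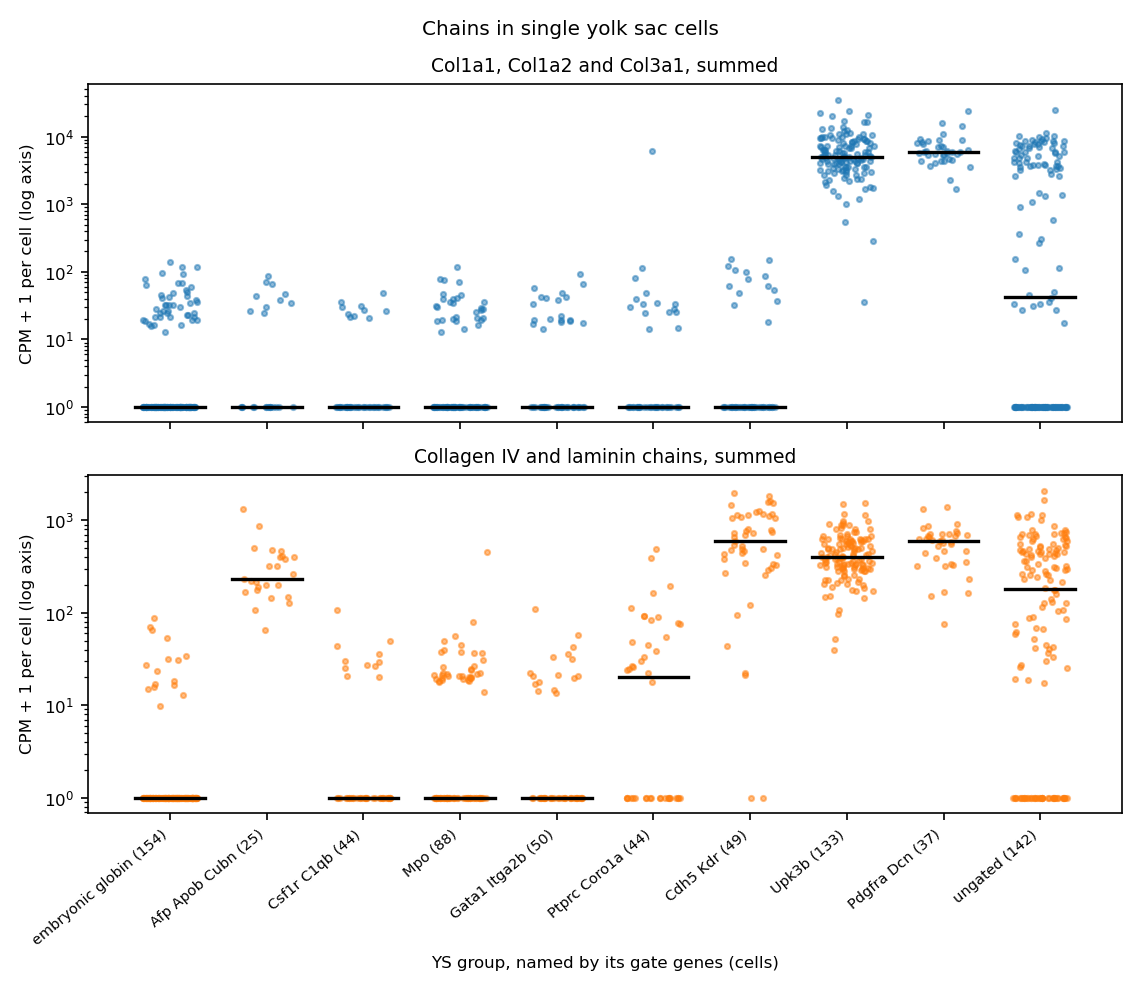
Per-cell level, CPM + 1 on a log axis, of Col1a1, Col1a2 and Col3a1 summed (top) and of collagen IV and laminin chains summed (bottom) in the YS groups; each point is 1 cell and each bar a group median. The top panel is high in the Upk3b and Pdgfra Dcn groups and split in the ungated cells, and the bottom panel is high also in the Cdh5 Kdr and Afp Apob Cubn groups.

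Between the libraries, Col1a1 was at 8.48 CPM (7.70 to 9.32; 430 UMIs) in EB and 655 CPM (644 to 665; 15831 UMIs) in YS, 77.2-fold higher in YS (70.1 to 85.1). Col1a2 was at 1.74 CPM (88 UMIs) and 363 CPM (8785 UMIs), 209-fold higher in YS (170 to 261). Col3a1 had 1 UMI in 1878 EB cells and 8699 UMIs in YS, where it was at 360 CPM, and its ratio has an interval from 3272 to 720270. Whether feeder cells gave part of the EB collagen UMIs was not tested, and no list of fibroblast markers was read. Of the proteoglycan and adaptor genes read below, EB cells held 0 UMIs of Lum and 10 of Dcn, while Fn1 was higher in EB than in YS. These genes are not a test of feeder cells.

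The minor fibrillar chains followed the same gates at lower levels. Col5a1 and Col5a2, chains of collagen V, which nucleates collagen I fibrils, were at 109.9 and 208 CPM in Upk3b cells and at 119.7 and 258 CPM in Pdgfra Dcn cells. Col11a1, the chain that collagen XI brings to cartilage fibrils, was at 185 CPM (170 to 200) in Upk3b and 94.5 CPM (74.8 to 118) in Pdgfra Dcn cells, the opposite order to Col5a2. Col27a1, a short fibrillar chain, was at 70.0 and 57.4 CPM, and at 9.49 CPM in Afp Apob Cubn cells. Col5a2 was also at 38.5 CPM (36 UMIs) in Cdh5 Kdr cells, where Col5a1 had 2 UMIs and Col11a1 had 0. Between libraries the ratio of YS to EB was 170 for Col5a2 (104 to 298), 45.8 for Col11a1 (33.1 to 65.2), 7.13 for Col11a2, 4.23 for Col5a1 (3.72 to 4.80) and 2.45 for Col27a1 (2.09 to 2.87). Col2a1, the main chain of cartilage, was at 1.72 CPM in EB and 1.57 CPM in YS, and Col24a1 had 19 and 3 UMIs, a ratio of EB to YS of 3.02 with an interval from 0.889 to 15.9. Collagen V is usually a trimer of both chains, and the ratio of Col5a1 to Col5a2 UMIs was 22.9 in EB (13.9 to 40.6) against 0.570 in YS (0.520 to 0.624).

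The chains of collagen I did not run in parallel in EB. Col1a1 was at 25.8 CPM (22.7 to 29.2) in the 320 Hand1 Foxf1 cells, named for transcription factors of lateral and extraembryonic mesoderm, 5.81-fold over the other EB cells (4.78 to 7.08). It had a UMI in 25.6% of these cells, 9.06% after thinning each cell to 6000 UMIs. Col1a2 was at 1.66 CPM (16 UMIs) in the same cells, close to the 1.74 CPM of all EB cells. The ratio of Col1a1 to Col1a2 UMIs was 15.5 (9.36 to 27.5) there, 1.61 (1.05 to 2.47) in Mesp1 cells, 4.89 (3.88 to 6.22) over all EB cells and 1.80 (1.76 to 1.85) over YS cells. In YS it was 1.84 in Upk3b and 1.83 in Pdgfra Dcn cells. Over the Hand1 Foxf1 cells, which share 1 library, the CPM of both chains gave r -0.05 (Pearson) and rho -0.03 (Spearman). With 16 Col1a2 UMIs over 320 cells, most cells held 0 of it, so these values cannot tell whether the chains go together cell by cell. The highest such cell held 569 CPM of collagen I and III, 225 of 320 held 0, and no EB cell reached the 1000 CPM of the YS cells. The ungated EB cells held Col1a1 at 21.0 CPM and Col1a2 at 0.592 CPM, but 57.7% of the 71 Col1a1 UMIs lay in 5 cells.

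Of the 37 members with enough UMIs in EB, 5 were at least 2-fold higher in Hand1 Foxf1 cells than in the other EB cells, where 3.27% of all genes were. Besides Col1a1 they were Col8a2, Col24a1, Col9a1 and Col26a1, with 9 to 40 UMIs each. Most of the 20 Col8a2 UMIs of EB lay in Hand1 Foxf1 cells, so Col8a2 met the minimum of 10 UMIs only with them. With cells of more than 1 lineage left out, 72 Hand1 Foxf1 cells remained, the count was 10 and fibrillar collagens were at 121 CPM in place of 51.3 CPM. The share of all genes was not computed for that setting, so the count of 10 is not read as a result about the members. In the other EB gates the counts were 5 of 37 for Kdr Pdgfra (3.35% of all genes), 0 for Mesp1 (1.94%), 3 for Prdm1 Prdm14 (10.6%), 4 for Sox2 Pou3f1 (8.98%), 5 for T (6.66%) and 7 for ungated cells (7.89%). In YS 34 of 37 members were at least 2-fold higher in Upk3b cells (19.2% of all genes) and 30 of 37 in Pdgfra Dcn cells (18.6%). The 3 not so in Upk3b cells were Col13a1, Col14a1 and Col15a1, which were among the 8 of 37 higher in Cdh5 Kdr cells (18.1% of all genes). Afp Apob Cubn cells had 5, all of the basement membrane (Col4a2, Lama1, Lama5, Lamb1 and Lamb2, against 19.3% of all genes), and ungated cells 7 (10.3%). The counts in Cdh5 Kdr and Afp Apob Cubn cells were near or below the shares of all genes. They are not read as a result about the members. The remaining groups had 1 in embryonic globin (3.33%), 1 in Ptprc Coro1a (7.16%) and 0 in Csf1r C1qb (10.0%), Mpo (6.92%) and Gata1 Itga2b cells (4.97%).

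Collagen IV chains 1 and 2 form the trimer found in nearly all basement membranes. Col4a1 was at 301 CPM (267 to 339) in Cdh5 Kdr cells, 197 CPM in Pdgfra Dcn, 109.2 CPM in Upk3b, 99.0 CPM in Afp Apob Cubn and 89.1 CPM in ungated cells. Col4a2 was at 153, 96.9, 79.1, 90.9 and 47.0 CPM in the same groups. The remaining groups lay far lower, with at most 2.31 CPM of either chain in the embryonic globin, Csf1r C1qb, Mpo and Gata1 Itga2b groups and 11.5 CPM of Col4a1 in Ptprc Coro1a cells. Collagen IV was thus spread over more groups than collagen I, and the Cdh5 Kdr cells, 6.32% of YS cells, held 19.2% of its UMIs against 0.153% of the fibrillar UMIs.

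In EB, collagen IV was highest in the Tal1 Fli1 gate. Col4a2 was at 56.6 CPM (45.6 to 69.5) in the 54 Tal1 Fli1 cells, 4.21-fold over the other EB cells (3.34 to 5.25), and at 28.1 CPM in the 235 Kdr Etv2 cells, 2.25-fold over the others. Col4a1 was at 36.7 CPM and 22.1 CPM in them. The lowest levels of Col4a1 were in the Sox2 Pou3f1 cells (3.90 CPM) and Mesp1 cells (6.94 CPM). Of 37 members, 7 were at least 2-fold higher in Tal1 Fli1 cells (6.98% of all genes) and 5 of 37 in Kdr Etv2 cells (2.22%). A gene needed 10 UMIs in the library and had no minimum within the group. Col5a2 thus stood at 0.622 CPM in Tal1 Fli1 cells on 1 UMI. In Kdr Etv2 cells the 5 were Col13a1, Col4a2, Col14a1, Lama4 and Col11a2. Col11a2 had 10 UMIs in EB, so it met the minimum only with this group counted, and was highest in Kdr Pdgfra cells (1.10 CPM). The count in Kdr Etv2 cells was 10 with each gate minimum doubled, which left 136 of these cells, and 9 with a minimum of 1 UMI. The share of all genes was not computed for these settings, so the higher counts are not read as a result about the members.

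The head-to-head chains did not keep 1 ratio. Col4a1 over Col4a2 UMIs was 0.933 in EB (0.841 to 1.04) and 1.66 in YS (1.52 to 1.82). In YS it was 1.97 in Cdh5 Kdr cells (1.61 to 2.43), 2.04 in Pdgfra Dcn cells, 1.38 in Upk3b cells (1.17 to 1.63) and 1.09 in Afp Apob Cubn cells (0.771 to 1.54). In EB it ran from 0.648 in Tal1 Fli1 cells (0.459 to 0.910) and 0.787 in Kdr Etv2 cells (0.638 to 0.969) to 1.20 in Mesp1 (0.899 to 1.61), 1.29 in Kdr Pdgfra (0.844 to 1.99) and 1.31 in cells of the T gate (0.787 to 2.20). The higher EB groups thus overlapped the Upk3b and Afp Apob Cubn groups of YS, and the difference between the libraries was not one between every pair of groups. Reads of the overlap at the start could have been counted for either gene, and the strand setting of the counting was not given.

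**Figure D3:**
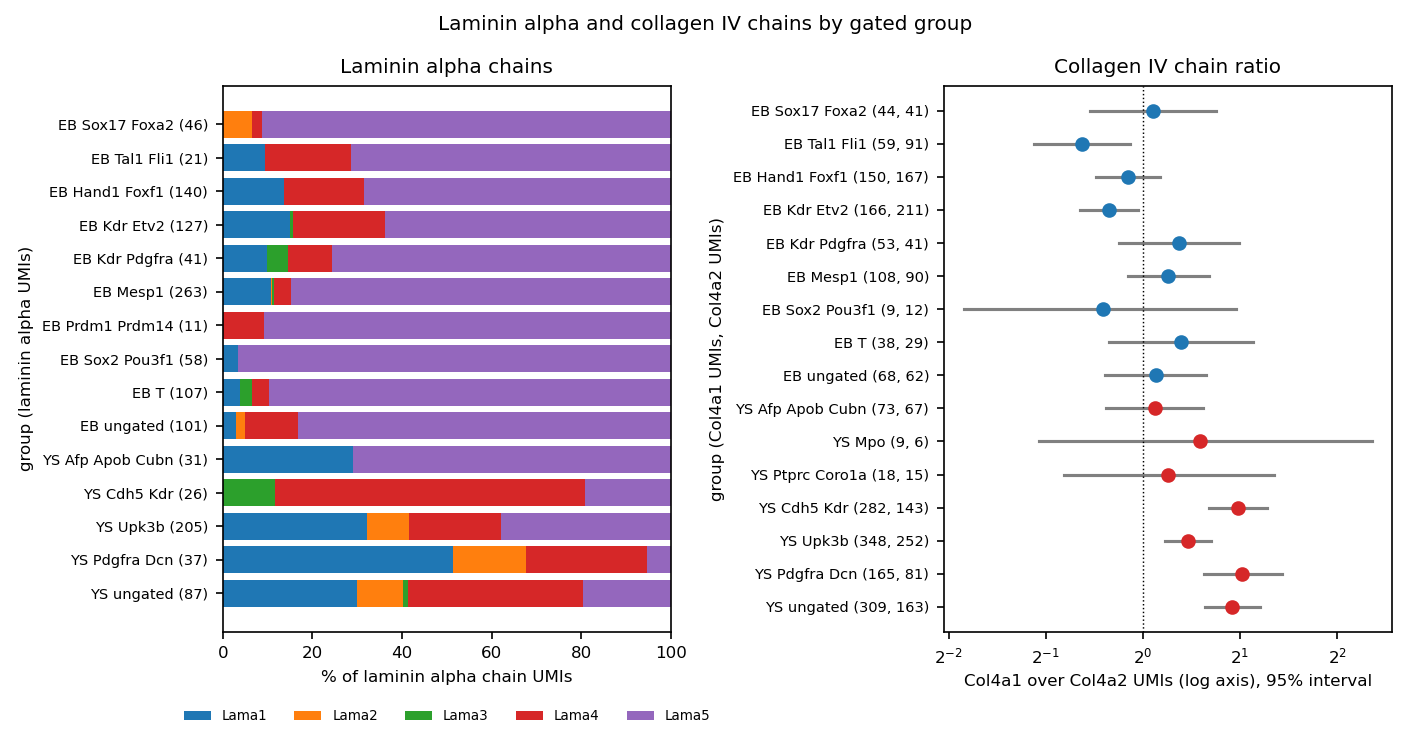
Left, share of each laminin alpha chain in all laminin alpha UMIs for groups with at least 10 such UMIs; right, ratio of Col4a1 to Col4a2 UMIs on a log axis with 95% counting intervals for groups with more than 3 UMIs of each. Lama5 leads in the EB groups, Lama4 in the YS Cdh5 Kdr cells, and the collagen IV ratio lies higher in YS (1.66 over all cells) than in EB (0.933).

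The chains that make up special collagen IV networks were low. Col4a5 had 43 UMIs in EB and 146 in YS (7.12-fold higher, 5.03 to 10.2) and reached 28.6 CPM in Upk3b cells. Col4a6 had 51 and 40 UMIs, while Col4a3 and Col4a4, chains of the mature kidney and lung membrane, had 1 UMI each in EB and 0 in YS.

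Laminin alpha chains set the receptor binding of a laminin. In EB, Lama5, the alpha chain of pluripotent and many epithelial cells, took 80.3% of laminin alpha UMIs (77.6% to 82.8%), with 9.59% for Lama4 and 8.73% for Lama1, the chain of the early embryo. In YS 3 chains had like shares, Lama1 30.8%, Lama5 30.3% and Lama4 28.6%, with 9.39% for Lama2, the muscle chain, and 0.939% for Lama3. Lama5 itself was at 14.7 CPM (13.7 to 15.8) in EB and 5.33 CPM (4.45 to 6.34) in YS, 2.76-fold higher in EB (2.28 to 3.35). Of the other alpha chains, Lama1 was 3.39-fold, Lama4 2.87-fold and Lama2 14.0-fold (5.89 to 40.3) higher in YS.

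Within YS the alpha chains separated the groups. Cdh5 Kdr cells held Lama4, the endothelial chain, at 69.2% of 26 alpha UMIs (48.2% to 85.7%) and Lama1 at 0. Afp Apob Cubn cells held Lama5 at 71.0% and Lama1 at 29.0% of 31. Pdgfra Dcn cells held Lama1 at 51.4%, Lama4 at 27.0% and Lama2 at 16.2% of 37, with 2 UMIs of Lama5, whereas Upk3b cells held Lama5 at 38.0% and Lama1 at 32.2% of 205. The level of Lama5 was 24.5 CPM in Upk3b cells and 2.39 CPM in Pdgfra Dcn cells, a contrast that collagen I did not show. In EB the share of Lama5 ran from 96.6% (56 of 58 UMIs) in Sox2 Pou3f1 cells to 63.8% in Kdr Etv2 cells, where Lama4 was 20.5% and Lama1 15.0%. Lama3, an alpha chain of stratified epithelia, had 7 UMIs in EB and 4 in YS, and Lamb3, a beta chain that pairs with it, had 17 and 4.

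Lamb1, the beta chain of early laminins, was the most abundant member in EB, at 33.6 CPM (32.0 to 35.2) against 26.3 CPM (24.3 to 28.5) in YS. It lay between 25.7 and 59.2 CPM in all 10 described EB groups. In YS it ran from 130 CPM in Pdgfra Dcn, 89.5 CPM in Upk3b and 54.3 CPM in Afp Apob Cubn cells to 18.2 CPM in Cdh5 Kdr cells and at most 1.92 CPM in the other gated groups described. The chain was thus general in EB and restricted to some gates in YS. Lamb2, the later beta chain, was at 2.90 CPM in EB and 3.60 CPM in YS. Lamc1, the gamma chain of most laminins, was at 9.55 CPM in EB and 17.1 CPM in YS (1.79-fold higher, 1.57 to 2.05), with 56.2 CPM in Pdgfra Dcn, 52.1 CPM in Upk3b and 23.5 CPM in Cdh5 Kdr cells. UMIs of beta chains were 3.64 times those of gamma chains in EB (3.30 to 4.02) and 1.74 times in YS (1.54 to 1.97).

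Col18a1, a basement membrane collagen whose end fragment is endostatin, was the second most abundant member in EB, at 23.3 CPM (22.0 to 24.7) against 52.0 CPM (49.1 to 54.9) in YS. In EB it was highest in Prdm1 Prdm14 cells (57.4 CPM), Sox2 Pou3f1 cells (52.1 CPM), ungated cells (49.4 CPM) and Tal1 Fli1 cells (45.4 CPM), and lowest in Kdr Pdgfra cells (7.35 CPM). A gate on Zfp42, a gene of undifferentiated stem cells, chosen after the group sizes had been seen, took 59 cells with 5 of 8 pluripotency markers, 4 of 7 germ cell markers and Col18a1 at 83.5 CPM (70.0 to 98.7). Among the 10 described EB groups, the lowest were Kdr Pdgfra (7.35 CPM), Hand1 Foxf1 (12.2 CPM), Kdr Etv2 (14.6 CPM) and Mesp1 (15.6 CPM). The T and Sox17 Foxa2 groups lay between these and the 4 highest. In YS it was at 173 CPM in Upk3b, 159 CPM in Cdh5 Kdr and 109 CPM in Pdgfra Dcn cells. Col15a1, its relative around vessels, had 2 UMIs in EB and 33 in YS, and was at 15.0 CPM in Cdh5 Kdr cells, 18.3-fold over the other YS cells (8.49 to 38.5).

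**Figure D4:**
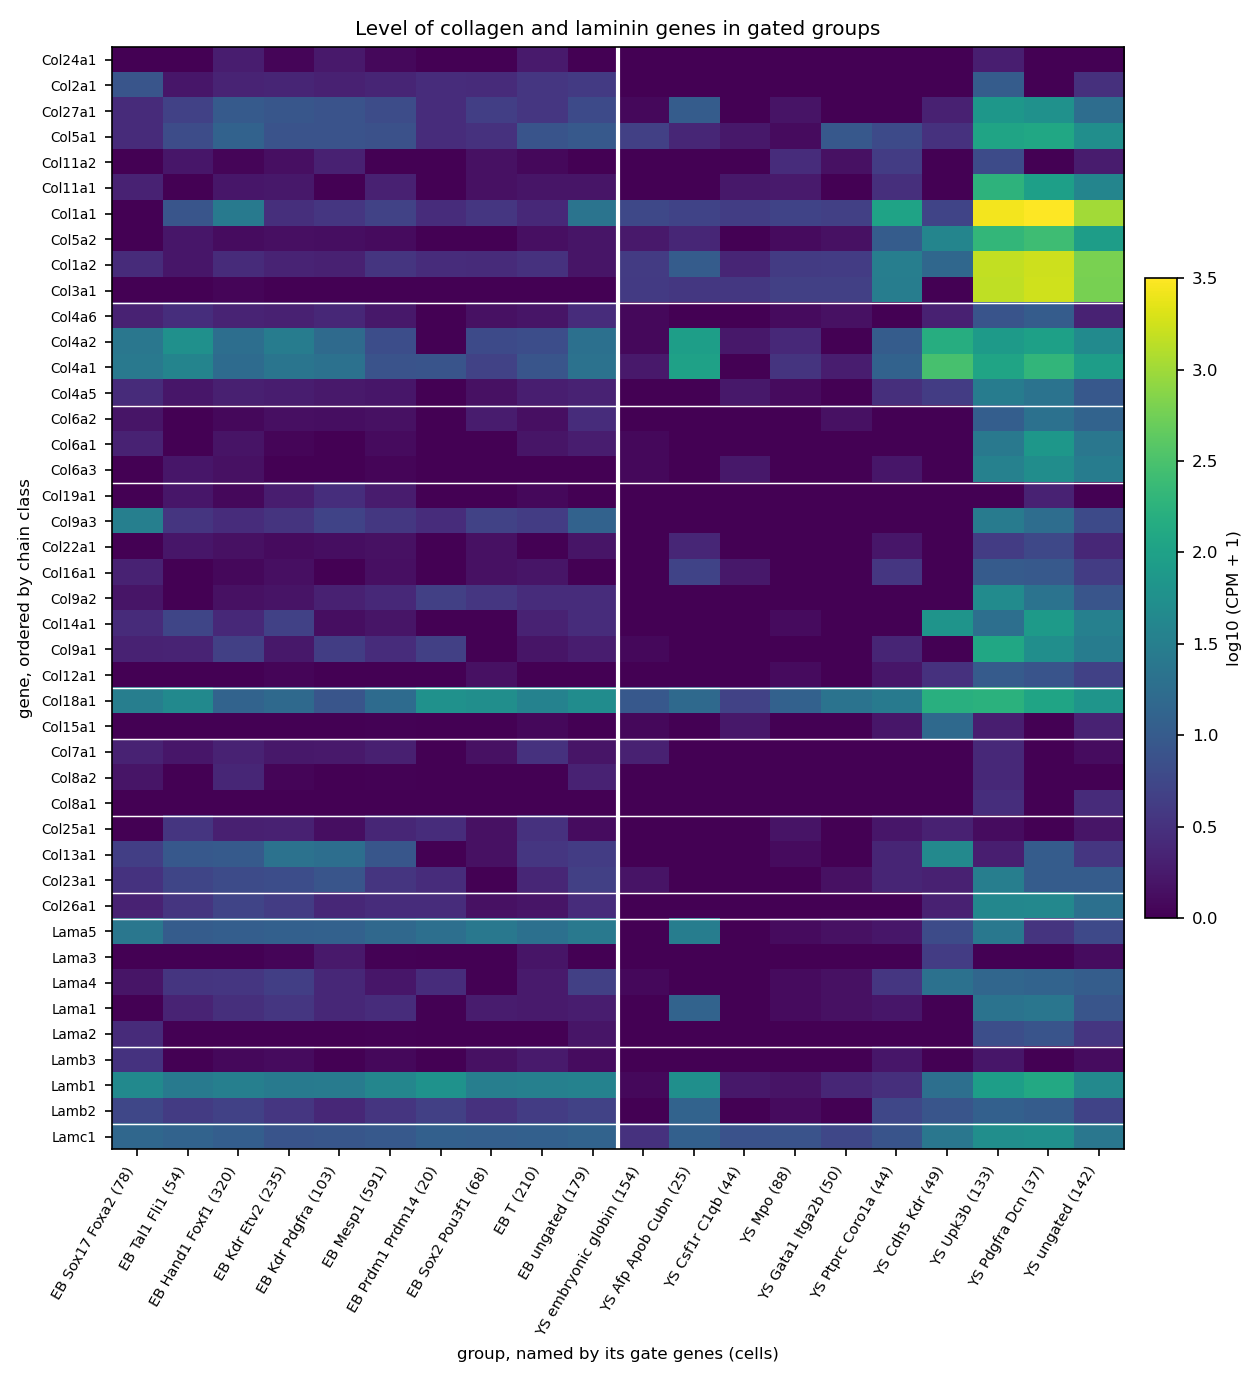
Level of the members with at least 10 UMIs that are reported here in the 10 described EB and 10 described YS groups, as log10 of CPM + 1. The rows of Col1a1, Col1a2 and Col3a1 reach the bright, high end of the scale in the YS Upk3b, Pdgfra Dcn and ungated columns, and Lamb1 and Col18a1 have values in all EB columns.

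Some other members were high in the Cdh5 Kdr cells. Col13a1, a transmembrane collagen of cell contacts, was at 42.7 CPM (30.5 to 58.2; 40 of the 63 YS UMIs) there, 43.2-fold over the other YS cells (25.2 to 75.6). In EB it was at 8.86 CPM, 3.40-fold higher than in YS (2.61 to 4.50), and was highest in Kdr Etv2 cells, at 19.7 CPM (16.7 to 23.1), and Kdr Pdgfra cells, at 17.6 CPM. Col14a1, a FACIT collagen, was at 64.1 CPM in Cdh5 Kdr and 80.2 CPM in Pdgfra Dcn cells but 18.2 CPM in Upk3b cells. In both libraries a gate that uses Kdr thus held the highest Col13a1.

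The 3 chains of collagen IX, a FACIT collagen of cartilage fibrils, were highest in Upk3b cells, at 119.9 CPM for Col9a1, 48.0 CPM for Col9a2 and 27.6 CPM for Col9a3. Pdgfra Dcn cells held 52.7, 20.3 and 16.8 CPM, lower for each chain. In EB, Col9a3 stood apart in the 78 Sox17 Foxa2 cells, which held 7 of 8 definitive endoderm markers, at 31.7 CPM (23.9 to 41.2), 9.75-fold over the other EB cells (7.06 to 13.3). Those cells also held Col2a1 at 7.36 CPM (13 UMIs), and 6 of 37 members were at least 2-fold higher in them (8.81% of all genes). That count, too, set no minimum of UMIs within the group.

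Collagen VI, the beaded filament around cells, was higher in YS for its 3 chains with enough UMIs: Col6a1 was 27.8-fold (17.2 to 47.8), Col6a2 8.47-fold and Col6a3 85.0-fold (40.7 to 213) higher there. It had the opposite order to collagen IX, with Col6a1 at 69.4 CPM in Pdgfra Dcn and 24.8 CPM in Upk3b cells, and Col6a3 at 51.5 and 33.3 CPM. Col26a1, Col23a1 and Col16a1 reached 41.9 CPM (Pdgfra Dcn), 30.1 CPM (Upk3b) and 9.10 CPM (Upk3b). Col12a1 had 2 UMIs in EB and 61 in YS, 63.9-fold higher with an interval from 17.0 to 540. Col8a1 had 0 UMIs in EB and 16 in YS, at least 11.2-fold higher against a floor of 3 counts in EB. On the EB side were Col19a1 (29 and 1 UMIs), Col25a1 (59 and 8), and Col7a1 of anchoring fibrils (52 and 12).

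**Figure D5:**
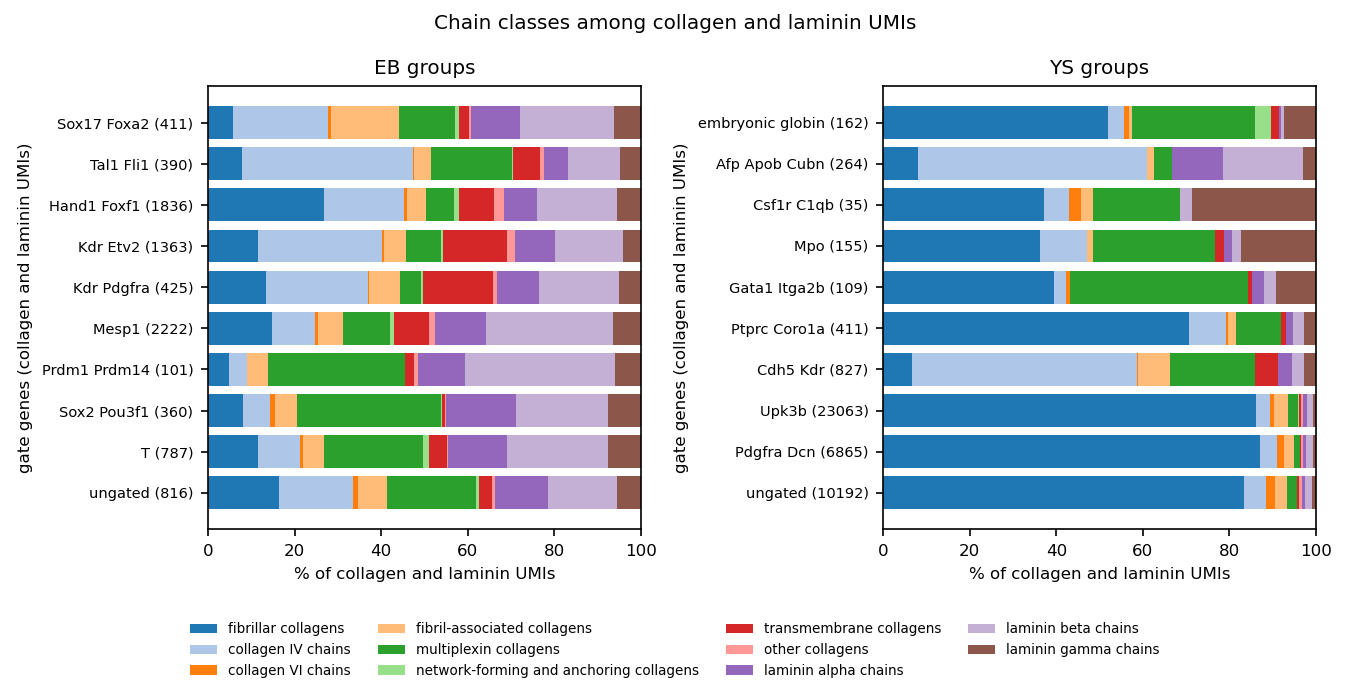
Share of each family in the member UMIs of every described group, with the member UMIs in brackets. Fibrillar collagens fill most of the YS Upk3b, Pdgfra Dcn and ungated bars, and laminins and collagen IV most of the EB bars.

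The remaining 11 members had fewer than 10 UMIs over both libraries: Col4a3, Col4a4, Col5a3, Col6a4, Col6a5, Col6a6, Col17a1, Col20a1 and Lamc3, with at most 9 UMIs, and Col10a1 and Col28a1, with 0. For the last 2, 3 counts allow up to 0.0592 CPM in EB and 0.124 CPM in YS. 52 members had a UMI in EB cells and 49 in YS cells.

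Blood cells are known to make little fibrillar collagen, and droplets without a cell gave the level of free RNA. In YS those droplets held Col1a1 at 420 CPM and members at 0.107% of UMIs, and a cell with the mean free RNA would show a Col1a1 UMI in 2.25% of cases. Col1a1 was seen in 14.3% of embryonic globin cells at a median of 33226 UMIs, 3.90% after thinning, and in 99.2% of Upk3b cells at a median of 22624 UMIs, 97.7% after thinning. The 2.25% is for droplets that were not thinned, so it stands beside the 14.3% and not beside the 3.90%. In embryonic globin cells the ratio of Col3a1 to Col1a1 UMIs was 0.615 (0.308 to 1.19) against 0.539 (0.482 to 0.603) in empty droplets. In Upk3b cells that ratio was 0.530, inside the same interval, and whether the Col1a1 UMIs of embryonic globin cells came from free RNA was not tested. The 105 CPM of Ptprc Coro1a cells rested on few cells, since 3 cells held 76.4% of the member UMIs of that group and fibrillar collagens were at 185 CPM with them and 16.0 CPM without them. Of the 411 member UMIs, 1 cell held 295, and 1 of 44 cells reached 1000 CPM of Col1a1, Col1a2 and Col3a1 summed.

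For Col18a1, Lamc1 and Col5a1, the ratio to Col1a1 UMIs is given beside that of empty droplets. The part of free RNA in the UMIs of these chains was not tested. The groups with a ratio here held 8 to 26 Col1a1 UMIs. The ratio of Col18a1 to Col1a1 UMIs was 0.0614 in empty droplets (56 and 912 UMIs), 1.73 in embryonic globin cells (1.05 to 2.92; 45 and 26 UMIs), 2.75 in Mpo cells (1.52 to 5.22) and 5.63 in Gata1 Itga2b cells (2.62 to 13.8; 45 and 8 UMIs). Lamc1 over Col1a1 was 0.0208 in empty droplets and 1.69 in Mpo cells (0.877 to 3.35; 27 and 16 UMIs). Col5a1 over Col1a1 was 0.0384 in empty droplets, 0.769 in embryonic globin cells (0.407 to 1.43) and 2.25 in Gata1 Itga2b cells (0.931 to 5.98; 18 and 8 UMIs), but 0.0625 in Mpo cells (1 and 16 UMIs). Gata1 Itga2b cells held Col5a1 at 8.08 CPM with 1 UMI of Col5a2. Lamc1 in Mpo cells came with 3 UMIs of alpha and 3 of beta chains, and in Csf1r C1qb cells 10 gamma UMIs came with 0 alpha and 1 beta. Doublets were not removed, and their part in these values was not tested; a doublet caller marked 2 of 775 YS cells, too few to serve as a filter.

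Genes that fold, cut and bind the chains were read from 6 lists, chosen with earlier results of these data known, and their counts stand beside the 21.5% of all genes that were at least 2-fold higher in YS and the 18.5% that were so in EB. Of 17 genes of collagen folding and secretion, 11 were higher in YS and 0 in EB, with a median log2 ratio of EB to YS of -1.45. Serpinh1, the collagen chaperone, was at 178 CPM in EB and 1214 CPM in YS, 6.82-fold higher (6.66 to 6.98), and at 5202 CPM in Upk3b and 989 CPM in Cdh5 Kdr cells. P4ha3, a prolyl hydroxylase subunit, was 18.9-fold and Creb3l1, a transcription factor of collagen secretion, 7.97-fold higher in YS, and Ppib (1.08-fold) and Mia3 (1.19-fold) were nearest to equal. Of 13 genes of propeptide cleavage and cross-linking, 7 were at least 2-fold higher in YS and 1 in EB (all genes 21.5% and 18.5%; median -1.92). Lox, which cross-links fibrils, had 2 UMIs in EB and 145 in YS, 152-fold higher (41.3 to 1267), and Loxl1 was 15.1-fold higher. Pcolce2 was at 10.7 CPM in EB and 1.08 CPM in YS, the opposite direction to its relative Pcolce (7.46 and 55.2 CPM).

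Of 12 basement membrane partners, 6 were at least 2-fold higher in YS and 1 in EB (all genes 21.5% and 18.5%; median -0.95). Nid1, the nidogen that links laminin to collagen IV, was at 2.45 CPM in EB and 23.4 CPM in YS and at 114 CPM in Cdh5 Kdr cells. Hspg2, the perlecan gene, was at 177 CPM in Cdh5 Kdr cells, and Sparc, which binds collagen, was at 175 CPM in EB, 790 CPM in YS and 3428 CPM in Pdgfra Dcn cells. The 1 gene higher in EB was Agrn, the agrin gene, at 16.7 and 3.31 CPM. Of 13 receptors, 5 were higher in YS and 0 in EB (all genes 21.5% and 18.5%; median -0.72), led by Ddr2, the receptor for fibrillar collagen, at 14.3-fold. Itgb1 was at 81.3 CPM in EB and 110 CPM in YS, and Itga6, of laminin receptors, reached 136 CPM in Cdh5 Kdr cells.

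Of 11 small proteoglycans and adaptors, 10 were at least 2-fold higher in YS and 1 in EB (all genes 21.5% and 18.5%; median -3.39). Lum had 0 UMIs in EB and 13378 in YS, Postn had 1 and 3178, and Dcn was at 616 CPM in YS. Fn1, fibronectin, was at 669 CPM in EB and 163 CPM in YS, with 1016 CPM in Tal1 Fli1 cells, the only gene of that list higher in EB. Of 10 matrix proteases and their inhibitors, 3 were higher in YS and 3 in EB, near the shares of all genes (21.5% and 18.5%; median -0.59). Mmp9 was at 4.32 CPM in EB and 0.331 CPM in YS, Timp4 had 29 and 0 UMIs, and Mmp14 was at 167 CPM in Cdh5 Kdr cells.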

How the data were processed

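The authors deposited unnormalized UMI counts, with 737280 barcodes in each of the 2 tables. Reads were placed on mm10, per the submitters' processing notes; no aligner, annotation or strand setting is given in the sources used here. Cells were barcodes with at least 6172 (EB) or 6537 (YS) UMIs and at most 10% of UMIs from mitochondrial genes, which left 1878 of 2020 EB and 775 of 801 YS barcodes. Cell totals ran from 6233 to 99304 UMIs in EB and from 6557 to 114332 in YS. Doublets were not removed. UMIs were summed over the cells of a library or gate and divided by their total. Intervals are exact Poisson (levels), Clopper-Pearson (shares) and conditional binomial (ratios) at 95%. Those of levels and ratios were tested on simulated Poisson counts. Such counts hold no spread between cells, so the test does not cover that spread. A gene was compared from 10 UMIs upwards, a difference was called at 2-fold, and a group was described from 20 cells upwards. A count of 0 was given the floor of 3 counts over the group. Empty droplets were the barcodes ranked 10001 to 50000 by UMIs. Gates took a cell by minimum UMIs of 1 to 3 genes, or for embryonic globin by 1% of UMIs, and 12 marker lists checked the gates, a name needing 3 markers at 2-fold. Of the listed genes, 4 were found under older symbols. Every member could be named, except 1 that is not reported here by itself and is in the counts and sums only, with full values for the 16 that reached 50 CPM in a described gate; of the partner lists the 2 highest and 2 lowest ratios and the highest levels were eligible. Members, gates and lists were chosen with earlier results of these data known. Alternatives changed the cell minimum, mitochondrial limit, gates, doublets, free RNA, scaling and UMI minimum. Python 3.11.15, numpy 2.4.6, scipy 1.17.1, pandas 2.3.3, scanpy 1.11.5 (Scrublet) and matplotlib 3.10.9 were used.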

Additional observations from a re-analysis of the deposited data

Results flagged for a closer look

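The barcodes not counted as cells also held collagen and laminin UMIs above the limit that a count of 0 allows. In EB, 1591 barcodes from 1000 UMIs up to the cell minimum held 0.0631% of their UMIs in the 55 genes (limit 6.57e-05%), against 0.0174% in EB cells. Lamb1 was at 130 CPM there and 33.6 CPM in cells, Col18a1 at 82.2 and 23.3 CPM, Lama5 at 73.0 and 14.7 CPM, and Lamc1 at 47.1 and 9.55 CPM. The 142 EB barcodes with more than 10% mitochondrial UMIs held 0.0437% (limit 0.000265%). In YS, 516 barcodes from 1000 UMIs up to the cell minimum held 0.386% (limit 0.000251%), against 0.183% in YS cells, with Col1a1 at 1695 CPM against 655 CPM and Col4a1 at 168 CPM against 52.9 CPM. The 26 YS barcodes with more than 10% mitochondrial UMIs held 0.0422% (limit 0.00112%), below the share in YS cells. Whether these barcodes are small cells, damaged cells or debris was not tested.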

How the results depend on the processing

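No library ratio of a member that was at least 2-fold as reported changed direction in the alternatives where it was compared. Smaller ratios were not checked for direction. Shares, levels and counts were compared in size only, and ratios between chains were not recomputed. With the UMI minimum of a cell doubled, members took 0.168% of YS UMIs, fibrillar collagens were at 5759 CPM in Upk3b cells and basement membrane chains at 443 CPM in Cdh5 Kdr cells (0.183%, 6244 and 535 CPM as reported). At most 5% mitochondrial UMIs gave 0.0170% in EB, 0.178% in YS, 5960 CPM in Upk3b and basement membrane chains at 260.1 CPM in Afp Apob Cubn cells (309 CPM as reported). Without cells of more than 1 lineage, the shares were 0.0210% and 0.197%, Hand1 Foxf1 cells had 10 members at 2-fold and 121 CPM of fibrillar collagens, and Tal1 Fli1 cells 191 CPM of basement membrane chains (150 CPM as reported). Doubled gate minimums gave 10 members in Kdr Etv2 cells, 5838 CPM in Upk3b cells, 63.6 CPM of fibrillar collagens in Hand1 Foxf1 cells and 656 CPM of basement membrane chains in Cdh5 Kdr cells. CPM without globin and mitochondrial UMIs gave 0.0180%, 0.201% and 6365 CPM in Upk3b cells. The mean of single-cell CPM gave 0.0182%, 0.267%, 5 members higher in EB, 7199 CPM in Upk3b and 715 CPM in Cdh5 Kdr cells. A minimum of 30 UMIs gave 5 members higher in EB and 3 in Hand1 Foxf1 cells, where fewer genes were compared, and a minimum of 1 UMI gave 9 in Hand1 Foxf1 and 9 in Kdr Etv2 cells. For the counts in Hand1 Foxf1 and Kdr Etv2 cells, the share of all genes in these settings was not computed. YS without embryonic globin cells had a share of 0.236%, and the median log2 ratio of EB to YS over all genes, -0.00167 as reported, moved to -0.16 and, with a minimum of 1 UMI, to -0.11. That median changed sign with the UMI minimum of a cell doubled (0.0161), at most 5% mitochondrial UMIs (0.0175) and a minimum of 30 UMIs (0.00281). The cause was not tested for the other settings. Leaving out Scrublet-marked cells (3 in EB, 2 in YS) and subtracting free RNA moved none of these. Of the values of single members, 417 stayed within their interval and 76 moved. These totals include the fibrillar levels of Ptprc Coro1a and Cdh5 Kdr cells without the 3 cells of most member UMIs.

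No paired analysis was possible because each group is 1 library. Depth limited the 11 members under 10 UMIs, and with 1 library in each group, stage, tissue, dissociation and library cannot be told apart.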
